A study of Bos taurus with 8 samples.

Results

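Oxidative phosphorylation genes were read out in cattle cells of 2 kinds, stem-like cells that grew from embryos (eSLCs) and somatic cells (SCs). The genes were chosen by symbol. A gene was taken if its symbol began with NDUFA, NDUFB, NDUFC, NDUFS, NDUFV, UQCR, ATP5 or COX4 to COX8, or was SDHA, SDHB, SDHC, SDHD or CYC1. Of the genes in the RefSeq table of cattle, 97 met this rule, and 90 of them had a probe among the 12603 genes that could be named on the array. The test was possible for 89 of these among 10957 genes tested. NDUFS8, NDUFAF8, UQCRC2, COX5A, COX7ALP1, COX7C and COX8C had no named probe and were not analysed here, and COX7B2 was too dim on all arrays but 1. The rule also takes in 7 measured NDUFAF genes, which help to assemble complex I and are not subunits of it, and these are described on their own.

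The respiratory chain sits in the inner membrane of mitochondria. Complexes I and II take electrons from NADH and succinate and pass them to ubiquinone, complex III passes them on to cytochrome c, and complex IV hands them to oxygen. Complexes I, III and IV pump protons across the membrane, and complex V, the ATP synthase, uses the return of protons to make ATP. Some of the subunits of complexes I, III, IV and V are encoded by mitochondrial DNA and are outside the rule. Several nuclear subunits of complex IV exist in pairs, with a widely expressed form and a form used in heart and skeletal muscle, lung or testis.

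The eSLCs are colonies that grew from HanWoo cattle blastocysts on an inactivated layer of murine STO feeder cells in 3i medium, which contains the inhibitors PD184352, SU5402 and CHIR99021. The lines I2 (passage 35) and I9 (passage 30) came from embryos produced in vitro (IVP-eSLCs). The lines N2 (passage 36) and N7 (passage 30) came from embryos made by nuclear transfer (NT-eSLCs), and P1 (passage 31) and P4 (passage 36) came from parthenogenetic embryos (PA-eSLCs). The nuclear transfer embryos carried nuclei of ear skin cells, and the parthenogenetic embryos were activated with Ca-ionophore and 6-DMAP. The SCs, also of HanWoo cattle, were taken at passages 5 and 10 and were grown in DMEM with FBS and antibiotics, and their labels do not name a tissue. Each of the 4 groups had 2 arrays. The labels do not say whether SC P5 and SC P10 were separate cultures, so that p-values measure only the spread between these samples, and the small number of arrays limits the precision of every value. Origin, medium, feeder layer and passage number differ together between eSLCs and SCs and cannot be told apart.

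All values below are background-subtracted signals divided by the 75th percentile of their array, with that percentile set to 1000, and 13.28 is the floor. Between 71.2% and 76.7% of the spots of an array were well above background. Slide 1 held the SC P5 array with those of N7, I2 and I9, and slide 2 held the SC P10 array with those of P4, P1 and N2. The sample labels were checked with marker genes. Of 12 fibroblast markers, 11 were lower in eSLCs than in SCs, S100A4 most (log2 difference -10.98), and their summed signal was 13520 to 71160 on the eSLC arrays and 705600 and 869300 on the SC arrays. All 9 trophectoderm markers were higher in eSLCs, with sums of 419400 to 1237000 against 4552 and 3401, and so were all 5 epithelial markers, with sums of 133400 to 264200 against 4528 and 4909. The trophectoderm gene PAG2 and the epithelial gene CLDN6 were at the floor on both SC arrays. Of 3 pluripotency markers, SOX2 was lower in eSLCs (log2 difference -2.91), NANOG did not exceed 35.36 on any array, and POU5F1 ranged from 30.72 to 100.8 over 5 eSLC lines, with 898.1 in N7.

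Most oxidative phosphorylation genes had a higher signal in eSLCs than in SCs, by less than 3-fold, while COX7A1, the muscle form of a complex IV subunit, was 150.3-fold lower. At an adjusted p under 0.05 (limma, with Benjamini-Hochberg adjustment over all genes tested), 41 of 89 genes were higher in eSLCs and 2 were lower, which are 46.1% and 2.25% of them. Of all genes tested, 27.5% were called higher and 19.6% lower, or 47.0% in either direction, against 43 of the 89. With a difference of at least 2-fold asked for as well, 15 were higher and 1 was lower, against 19.7% and 15.7% of all genes. The median log2 difference of the 89 genes was 0.57 and that of all genes tested 0.23, and 82 of the 89 differences were above 0. All 6 eSLC arrays were above both SC arrays for 57 genes and below both for 3, against 34.0% and 23.6% of all genes, and the arrays overlapped for 29. In bulk samples, fewer cells of a type and less RNA per cell cannot be told apart. Without SC P5 the counts were 20 higher and 2 lower, against 13.5% and 10.9% of all genes, and with the SC arrays taken as 1 sample they were 24 and 1, against 14.2% and 11.0%.

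**Figure D1:**
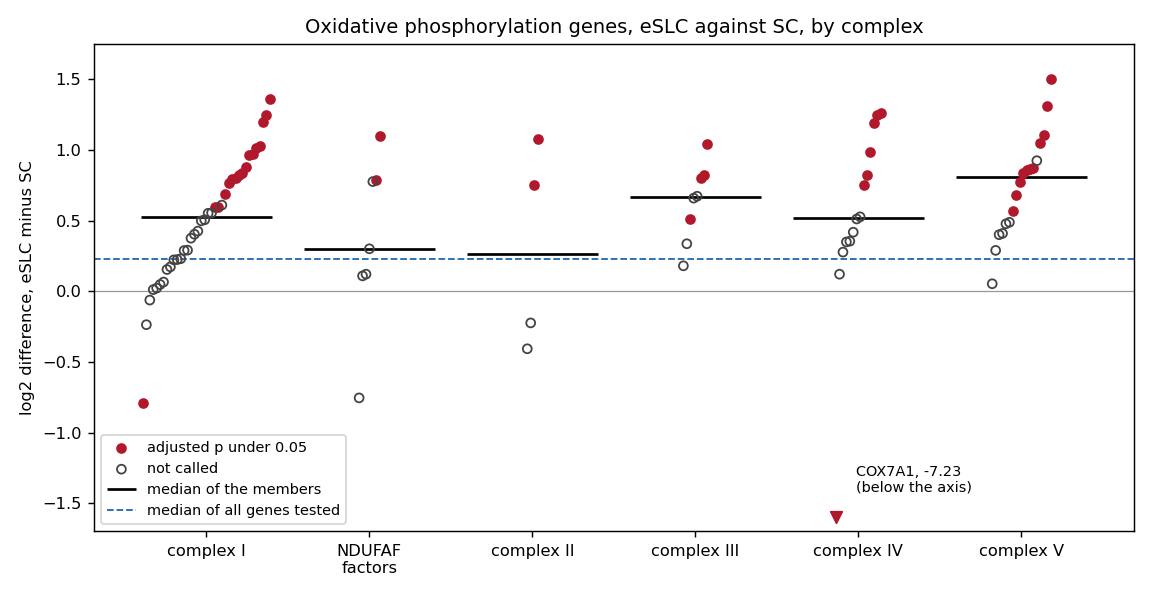
Log2 difference between eSLCs (mean of the 3 origins) and SCs for each of the 89 genes, by complex, with genes called at an adjusted p under 0.05 filled and the others open. The medians of complexes I, III, IV and V (0.53, 0.67, 0.52 and 0.81) lie above the median of all genes tested (0.23), and COX7A1 at -7.23 lies below the axis and is drawn as a triangle at its edge.

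Most of these genes had high signals, and brightness moved with the result. The mean normalized signal was at least 10000 for 71 of the 89 genes. Of all 1369 tested genes that bright, 38.1% were called higher and 6.36% lower, and their median log2 difference was 0.47. Of the 71, 38 were called higher and none lower, and their median was 0.67. The limit of 10000 was chosen after the values were seen. Quantile normalization, which gives every array the same distribution of signals, lowered the median of all genes tested to 0.12 and that of the 89 genes to 0.29. The distance of the members' median from that of all genes was 0.34 with the 75th percentile and 0.17 with quantile normalization. Under quantile normalization, 27 members were called higher and 3 lower, against 24.5% and 21.9% of all genes. The part of scaling and brightness in the shift was not tested.

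**Figure D2:**
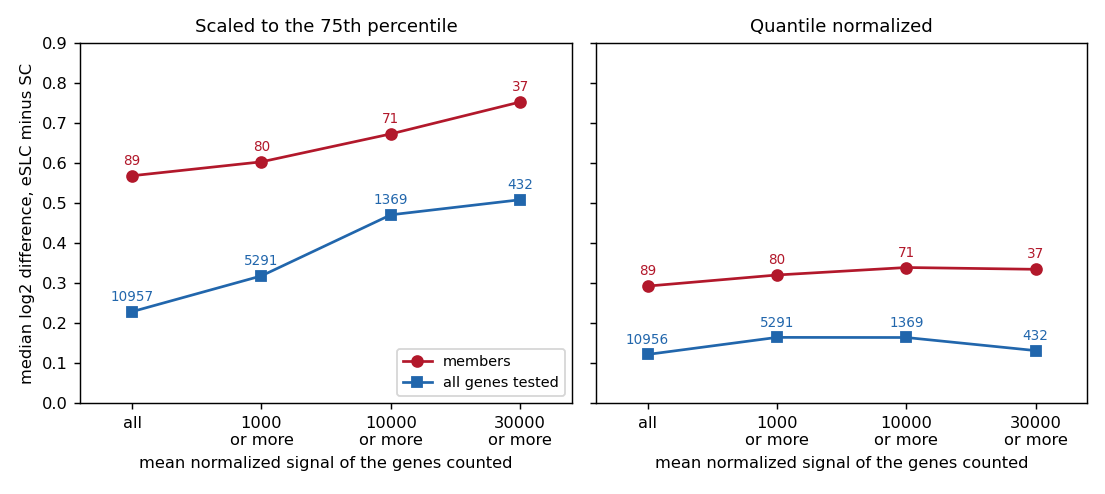
Median log2 difference between eSLCs and SCs for the oxidative phosphorylation genes (circles) and for all genes tested (squares), over all genes and over those with a mean normalized signal of at least 1000, 10000 or 30000, with the number of genes at each point. Scaled to the 75th percentile, the median of all genes tested rises from 0.23 to 0.51 with brightness, a mean that includes the eSLC arrays. After quantile normalization it stays between 0.12 and 0.16, with the members above it at 0.29 to 0.34.

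Complex I, the NADH dehydrogenase, had 38 genes tested, counted by symbol. Of these, 16 were higher and 1 was lower in eSLCs (limma), against 27.5% and 19.6% of all genes tested. The median log2 difference was 0.53. The largest rises were those of NDUFA12, NDUFA9 and NDUFA11, accessory subunits. The NDUFA12 signal was 21320 to 43180 in eSLCs (median 35390) against 11570 and 14270 in SCs. Its log2 difference was 1.36 (SE 0.30, adjusted p = 0.0135). NDUFA9 lay between 19900 and 25840 in eSLCs (median 23130) and at 9130 and 10200 in SCs, a log2 difference of 1.25 (SE 0.18, adjusted p = 0.00254). NDUFA11 ranged from 42480 to 76490 (median 51390) and stood at 20880 and 27080 in SCs, with a log2 difference of 1.20 (SE 0.19, adjusted p = 0.00371). For each of these genes the 6 eSLC arrays were above both SC arrays. The call of NDUFA12 was lost without SC P5 (adjusted p = 0.125) and without SC P10 (adjusted p = 0.0759).

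Within complex I, the core subunits, which carry the flavin and the iron-sulfur clusters or the ubiquinone site, were counted apart. Of the 6 core subunits encoded in the nucleus and tested, 1 was called, NDUFS3, with a log2 difference of 0.60 (SE 0.15, adjusted p = 0.0226). The others were not called, with log2 differences from 0.05 for NDUFV2 to 0.55 for NDUFS7. With 6 genes, this count cannot be told apart from the 27.5% of all genes tested that were called higher. The median of the 6 was 0.31, against 0.23 for all genes tested. Of the 32 other genes counted with complex I, NDUFA4 and NDUFA4L2 among them, 15 were called higher and 1 lower, with a median of 0.57. The difference between core and other subunits was not tested, and the split was made after the values were seen. NDUFAB1, the mitochondrial acyl carrier protein, was among those called, at 67070 to 82250 in eSLCs (median 74550) against 42160 and 45360 (log2 difference 0.77, SE 0.16, adjusted p = 0.00949).

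A few genes counted with complex I by their symbols did not follow. NDUFA4L2, a relative of NDUFA4 known as a target of hypoxia signalling, was the 1 gene in that count called lower. Its signal was 125.2 to 168.6 in eSLCs (median 133.3) against 223.1 and 254.4 in SCs, so that the groups did not overlap, and the log2 difference was -0.79 (SE 0.17, adjusted p = 0.0131). This call was lost without SC P10 (adjusted p = 0.0755). NDUFA4, named as a complex I subunit and later placed in complex IV, had arrays of eSLCs on both sides of the SC arrays, at 52630 to 100900 (median 69040) against 58000 and 57970, and was not called (log2 difference 0.29, adjusted p = 0.362). Another NDUFA4 probe had a difference of -0.68, and quantile normalization gave -0.13. NDUFB2 and NDUFA5, 2 further accessory subunits, had differences of -0.24 and -0.06 and were not called. NDUFA5 was at 20020, 20720 and 20010 in I9, N2 and N7 and at 8855, 9332 and 10940 in I2, P1 and P4, so that the SC values, 12690 and 16830, lay between.

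Of the 7 NDUFAF assembly factors, 2 were higher in eSLCs, a share near the 27.5% of all genes tested. NDUFAF2 was at 974.8 to 1803 (median 1298) against 518.9 and 707.8 (log2 difference 1.1, SE 0.29, adjusted p = 0.0233). NDUFAF1, a dim gene, was at 38.70 to 55.93 (median 46.03) against 23.71 and 29.80 (log2 difference 0.79, SE 0.18, adjusted p = 0.0152). Neither call was stable to the choice of arrays: without SC P5 the adjusted p was 0.180 for NDUFAF2 and 0.0890 for NDUFAF1. The other 5 were not called, with NDUFAF7 at -0.76 and the rest between 0.11 and 0.78. The median of the 7 was 0.30, against 0.23 for all genes tested. For NDUFAF6 the brightest probe gave 0.30 and the second probe 1.69 (adjusted p = 0.00353 over probes), so that the gene's difference depends on the probe.

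Complex II, succinate dehydrogenase, split by part. SDHA, the flavoprotein, and SDHB, the iron-sulfur subunit, make up the catalytic head, and SDHC and SDHD anchor it in the membrane. SDHC had a signal of 21980 to 35430 in eSLCs (median 26680) against 12710 and 12970 in SCs, and SDHD one of 11520 to 18530 (median 12760) against 7427 and 8526. For both anchors every eSLC array was above both SC arrays. The log2 differences were 1.08 for SDHC (SE 0.17, adjusted p = 0.00370) and 0.75 for SDHD (SE 0.17, adjusted p = 0.0153), and the call of SDHD was lost without SC P5 (adjusted p = 0.0879). SDHA lay at 43070 to 60540 in eSLCs (median 50770) against 58180 and 61970, and SDHB at 2511 to 5458 (median 3652) against 5788 and 4095. Neither head subunit was called, with log2 differences of -0.22 (SE 0.15, adjusted p = 0.253) and -0.41 (SE 0.28, adjusted p = 0.272). The 4 probes of SDHA gave differences of -0.62 to -0.22, and the 2 probes each of SDHC and SDHD were called higher. The difference between head and anchors was not tested. After quantile normalization SDHA was called lower (log2 difference -0.68, adjusted p = 0.0452). SDHA counts as a housekeeping gene in many assays. Of the 12 housekeeping genes listed, 2 were called, both higher (the same number at an unadjusted p under 0.05), against 27.5% of all genes tested. The median log2 difference of the 12 was 0.31, and PGK1 had the largest rise (log2 difference 1.17, adjusted p = 0.0173).

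**Figure D3:**
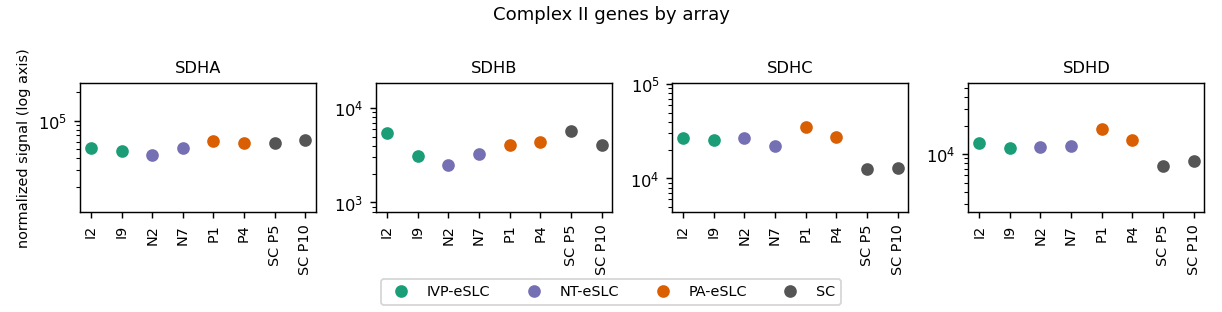
Normalized signal (log axis) of the 4 complex II genes on each of the 8 arrays, coloured by group. SDHC and SDHD lie higher on all 6 eSLC arrays than on the SC arrays (12710 and 12970 for SDHC, 7427 and 8526 for SDHD), and the values of SDHA and SDHB overlap between the groups.

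Complex III, the cytochrome bc1 complex, had 4 of 8 genes called higher in eSLCs by limma, against 27.5% of all genes tested. At an unadjusted p under 0.05 (limma) the count was 6, and all 8 differences were above 0 (0.18 to 1.04, median 0.67). CYC1, cytochrome c1, which passes electrons to cytochrome c, rose most. It was at 64670 to 106100 in eSLCs (median 88920) against 35500 and 49850 in SCs (log2 difference 1.04, SE 0.23, adjusted p = 0.0132). UQCRB, a small subunit near the ubiquinone site, was at 22460 to 34190 (median 28310) against 14440 and 17490 (log2 difference 0.82, SE 0.17, adjusted p = 0.0110). UQCRQ, another small subunit, was at 21280 to 31230 (median 26490) against 12520 and 17450 (log2 difference 0.80, SE 0.19, adjusted p = 0.0152). In each case all eSLC arrays were above both SC arrays, and without SC P5 each call was lost, with adjusted p of 0.105, 0.0687 and 0.0675. The fourth gene called was UQCR10, with a difference of 0.51 (adjusted p = 0.0371). UQCRFS1, the Rieske iron-sulfur protein, had separate groups as well, at 17250 to 28260 (median 27470) against 16130 and 14900, but missed the threshold (log2 difference 0.66, SE 0.23, adjusted p = 0.0601), which it passed without N2 or without N7 (adjusted p = 0.0164 and 0.0481).

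Complex IV, cytochrome c oxidase, held the largest difference. COX7A1, the form of subunit VIIa used in heart and skeletal muscle, had a signal of 8104 and 6480 in SCs and of 19.32 to 119.8 in eSLCs (median 57.23). No eSLC array came near the SC arrays. The log2 difference was -7.23 (SE 0.77, adjusted p = 0.000803), a signal 150.3-fold lower in eSLCs. The second probe of the gene gave -7.21, but it was at the floor in I9, N2 and P4, so that its value depends on the floor. The widely expressed form, COX7A2, went the other way, at 50740 to 75210 in eSLCs (median 64220) against 29290 and 32880 (log2 difference 0.98, SE 0.19, adjusted p = 0.00784), which missed the threshold once SC P5 was left out (adjusted p = 0.0651). COX7A2L, a related protein that joins respiratory complexes into supercomplexes, was at 16380 to 21720 (median 19720) against 7823 and 8249 (log2 difference 1.25, SE 0.16, adjusted p = 0.00159). For both of these genes all probes were called higher. COX7A1 was read beside markers of striated muscle. Of the 7 muscle genes named, 6 were tested, DES was higher in eSLCs and ACTA1 lower, and their summed signal overlapped, at 5540 to 14830 in eSLCs and 11920 and 10960 in SCs. In SCs, MYH2 was at 13.28 and 13.72, CKM at 13.28 and 17.20 and TNNT3 at 26.14 and 13.28, at or near the floor. The other muscle genes held nearly all of the summed signal of the SC arrays. The fibroblast markers moved with COX7A1, as given above, and their part in its difference was not tested.

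Of the 14 complex IV genes tested, 6 were called higher, COX7A2 and COX7A2L among them, against 27.5% of all genes tested. Another 7 were not called, with log2 differences of 0.12 to 0.53. COX7B was at 38220 to 68380 (median 53020) against 19660 and 23140 (log2 difference 1.26, SE 0.19, adjusted p = 0.00297), and COX8A at 34500 to 56950 (median 43730) against 18020 and 21010 (log2 difference 1.19, SE 0.17, adjusted p = 0.00283). COX6C and COX6B1 were also called, at 0.82 and 0.75, and COX6B1 missed the threshold when either SC array, either IVP array or either PA array was left out (adjusted p 0.0505 to 0.154). The groups of COX6A1, the widely expressed form of subunit VIa, did not overlap (31490 to 57620 against 28600 and 31200), but it was not called (log2 difference 0.51, adjusted p = 0.0741), except without N7 (adjusted p = 0.0334). COX4I1, the widely expressed form of subunit IV, was not called (0.35, adjusted p = 0.252), and its difference was -0.08 after quantile normalization.

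The muscle, lung and testis forms other than COX7A1 were mostly dim. COX6A2 and COX8B, muscle forms, were at 33.33 to 84.23 and 25.11 to 52.70 in eSLCs, against 42.16 and 38.96, and 35.55 and 22.47, in SCs, with overlapping groups and no call. The difference of COX6A2 changed sign with the processing. COX4I2, the lung form, was at the floor and not well above background on both SC arrays, was well above background on 4 eSLC arrays and reached 28.00 in P1. With the floor in place its mean was 1.21-fold higher in eSLCs. This value is not a lower bound, since N2, N7 and P4 were at the floor too. The difference was not called by limma (adjusted p = 0.458). Without P4 the log2 difference was 0.46, but both SC and both NT arrays were at the floor, so that this fit cannot measure their spread. COX7B2, a testis form, was not well above background on any array but that of N7, where its signal was 2141, and was at the floor elsewhere. COX6B2, a testis form of subunit VIb, gave 2 answers. Its brightest probe was at 4502 to 7538 in eSLCs (median 7041) against 5334 and 4500 and was not called (log2 difference 0.42, adjusted p = 0.185), except without N7 (adjusted p = 0.0421). Its second probe, with the same accession, was at 333.6 to 1210 against 51.37 and 40.97, a log2 difference of 4.04 (SE 0.47, adjusted p = 0.00160 over probes). The mean of both probes gave 2.23 (adjusted p = 0.00331).

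**Figure D4:**
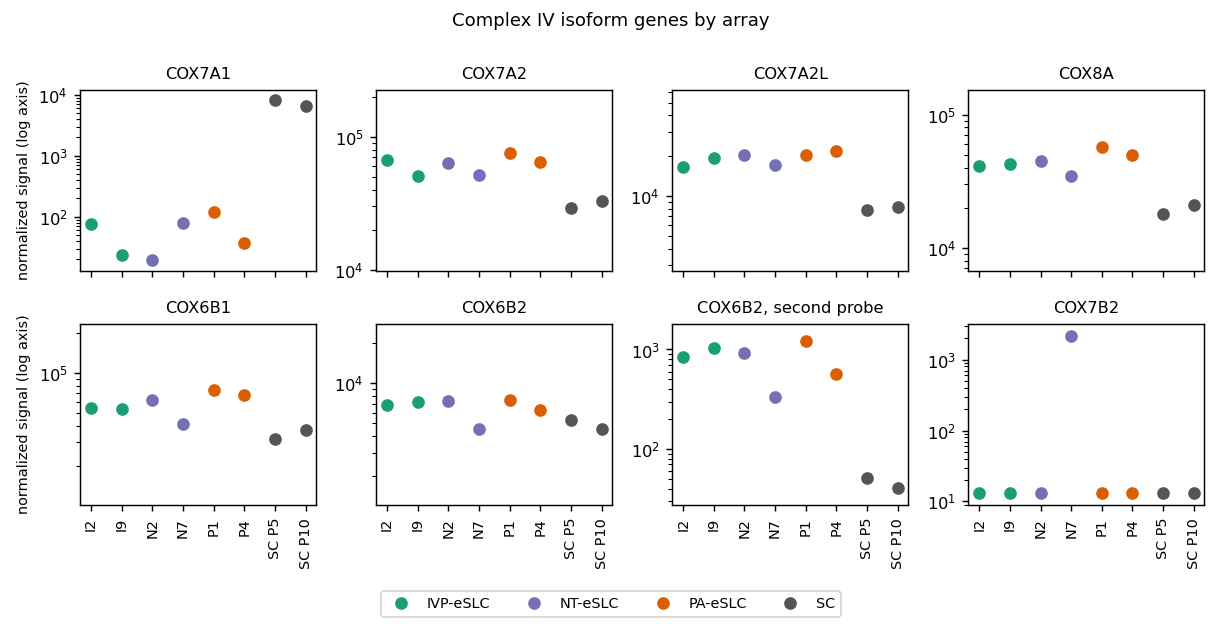
Normalized signal (log axis, range differing between panels) of complex IV genes on each array, coloured by group. COX7A1 is at 8104 and 6480 in the SC arrays and at or below 119.8 in the eSLC arrays, COX7A2, COX7A2L, COX8A and COX6B1 are higher in every eSLC array than in both SC arrays, the probes of COX6B2 differ from each other, and COX7B2 has a signal above the floor in N7 only.

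Complex V, the ATP synthase, had 11 of 18 genes called higher by limma, the highest share among the complexes, against 27.5% of all genes tested. At an unadjusted p under 0.05 (limma) the count was 12, a smaller share than the 6 of 8 in complex III. Its median, 0.81, was the highest of the complexes, and all 18 differences were above 0. ATP5MC1, ATP5MC2 and ATP5MC3 encode the same c subunit of the membrane ring that protons turn. ATP5MC1 was at 62140 to 83350 in eSLCs (median 67650) against 21600 and 27420 in SCs, a log2 difference of 1.51 (SE 0.17, adjusted p = 0.000950) and the largest rise of the 89 genes where the probe with the highest mean stands for its gene. With the mean of a gene's probes, COX6B2 rose more (2.23), and single probes of COX6B2 and NDUFAF6 did too (4.04 and 1.69). ATP5MC3 was at 97570 to 140200 (median 127200) against 52960 and 62790 (log2 difference 1.1, SE 0.19, adjusted p = 0.00512). ATP5MC2 was at 58540 to 121900 (median 90700) against 44300 and 47600 and was not called (log2 difference 0.92, SE 0.32, adjusted p = 0.0572), although the groups did not overlap on this probe. It was called with slide as a block (adjusted p = 0.0485), with normexp, with the stricter filter, and without N2 or N7 (adjusted p = 0.0427 and 0.0136). On its other probes N7 lay below both SC arrays.

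Calls were also made outside the c-ring, where each count below stands against 27.5% of all genes tested called higher. Of 5 other membrane subunits 4 were called, with ATP5MJ highest, at 18470 to 30080 (median 26270) against 9072 and 11220 (log2 difference 1.31, SE 0.21, adjusted p = 0.00378). Of 4 peripheral stalk subunits, which hold the head still, 3 were called, with ATP5PB at 1.05 (SE 0.16, adjusted p = 0.00348). Of 5 subunits of the F1 head, where ATP is made, 2 were called, ATP5F1A at 0.57 and ATP5F1C at 0.86, and the other 3 had differences of 0.05 to 0.49. ATP5F1B, the catalytic beta subunit, was at 92880 to 173300 in eSLCs against 75120 and 106400 and was not called (log2 difference 0.49, adjusted p = 0.208). ATP5IF1, which blocks ATP hydrolysis by the enzyme, was at 34310 to 62690 (median 45780) against 33260 and 33590 and was not called (log2 difference 0.48, adjusted p = 0.0975), except without P4 (adjusted p = 0.0441). Differences between these parts of the enzyme were not tested.

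Each origin was then set against the SCs, which all 3 comparisons share. In IVP-eSLCs 30 genes were higher and 2 lower, against 21.0% and 16.5% of all genes tested. In NT-eSLCs 25 were higher and 2 lower, against 18.9% and 15.7%, and in PA-eSLCs 46 were higher and 2 lower, against 24.9% and 16.8% (limma). With at least 2-fold asked for as well, 25 were higher in PA-eSLCs, against 20.4% of all genes, 13 in IVP-eSLCs, against 17.7%, and 9 in NT-eSLCs, against 15.8%. The medians of the 89 genes were 0.55, 0.48 and 0.77, and those of all genes tested 0.20, 0.17 and 0.27. COX7A1 and NDUFA4L2 were the 2 genes called lower in each comparison, with log2 differences of -7.41, -7.52 and -6.76 for COX7A1 and of -0.77, -0.89 and -0.71 for NDUFA4L2 in IVP-, NT- and PA-eSLCs. ATP5MC1 was at 1.39, 1.46 and 1.67, and SDHC at 1.03, 0.91 and 1.29. Without SC P5 the genes called higher numbered 10 in IVP-eSLCs, 5 in NT-eSLCs and 20 in PA-eSLCs, against 10.5%, 8.56% and 12.6% of all genes. Other single arrays moved the counts of higher genes as well, to 12 in IVP-eSLCs without I2 and 18 without I9, to 12 in NT-eSLCs without SC P10, and to 22 in PA-eSLCs without P1. After quantile normalization 16, 14 and 17 were called higher, against 19.0%, 17.6% and 21.1% of all genes, shares near those of all genes.

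Whether the origin of the embryo changed these genes was asked by comparing NT- and PA-eSLCs with IVP-eSLCs. Between NT- and IVP-eSLCs 0 of 89 genes were called by limma, as were 0.00% of all genes, and 0 of the 89 (306 of all genes) had an unadjusted p under 0.05. The methods' t-test at an unadjusted p under 0.05 called 5 of the 89 lower in NT-eSLCs and none higher, 5.62% in either direction, against 2.71% of all genes. The median was -0.06, and the log2 differences ran from -0.53 for COX6C (SE 0.27) to 0.61 for NDUFA5 (SE 0.40). Between PA- and IVP-eSLCs 0 were called, as were 0.00% of all genes, and 1 of the 89 (568 of all genes) had an unadjusted p under 0.05, NDUFA11 (log2 difference 0.64, SE 0.23, adjusted p = 0.851). By the methods' t-test at an unadjusted p under 0.05, 12 of the 89 were higher in PA-eSLCs and none lower, 13.5%, against 5.89% of all genes, and none were called after Benjamini-Hochberg adjustment. The median was 0.21, against 0.05 for all genes and 0.26 for the 12 housekeeping genes listed. Of the 89, 71 were higher in PA-eSLCs, a count that was not made for all genes. Slide 1 held the IVP arrays and slide 2 the PA arrays, so that slide and origin cannot be told apart here. In pairs of the same group, the median of the 89 genes was higher on slide 2 by 0.12 for SC P10 against SC P5 and by 0.17 for N2 against N7. The median of all genes tested was 0 in each pair. Among genes with a mean signal of at least 10000, the members were higher by 0.13 and 0.26, and all genes by 0.065 and 0.24. The SC arrays also differ in passage, and N2 and N7 in line and passage.

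Among the 6 eSLC lines, the highest signal of a gene was 1.14 to 6.20 times the lowest, with a median of 1.56, and at least 2 times it for 13 of the 89 genes. COX7A1 had the widest range, at low signals. P1 was the highest of the 6 lines for 44 genes and P4 for 18, and N7 was the lowest for 42 and N2 for 21. These counts were not made for all genes tested. Among genes with a mean signal of at least 10000, N7 was below N2 by a median of 0.24 for all genes and 0.26 for the members. Centred on the mean of the 6 lines, the median level of the 89 genes was 0.19 in P1, 0.12 in P4, 0.02 in N2, -0.03 in I2, -0.05 in I9 and -0.17 in N7, on the log2 scale. For all genes tested the same levels lay between -0.06 and 0.04. The spread was widest for complex IV, from -0.43 in N7 to 0.36 in P1. The NDUFAF factors ran another way, with the highest level in N7 (0.28) and the lowest in P1 (-0.35). N7 also had the highest summed fibroblast signal of the 6 lines (71160) and the lowest trophectoderm and epithelial sums (419400 and 133400), and their part in these levels was not tested. These levels are a description of single arrays, and no line had a second array.

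**Figure D5:**
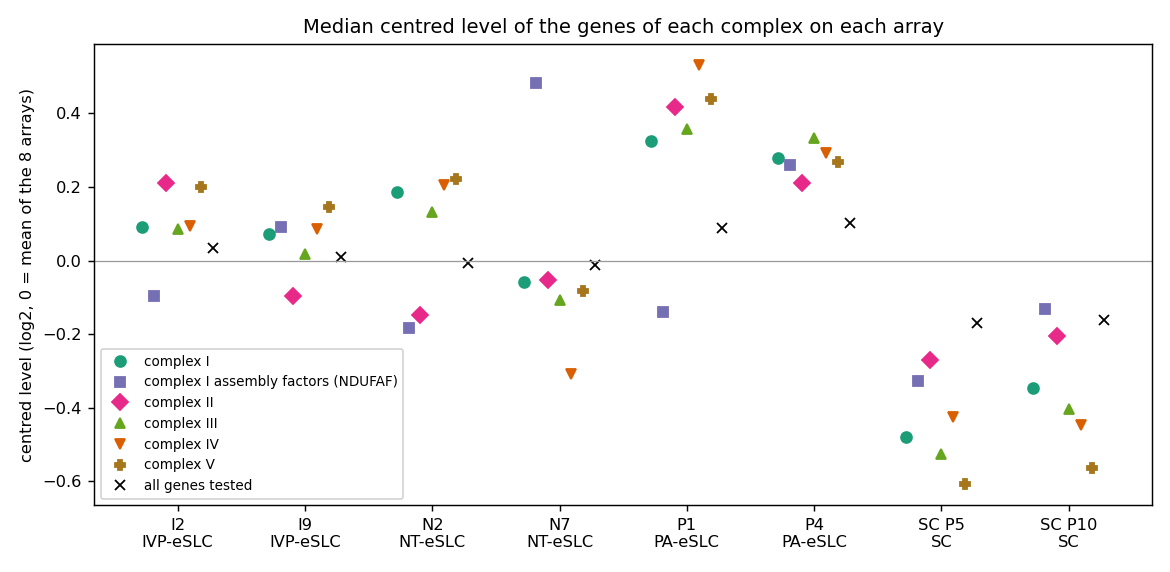
Median over the genes of each complex of the log2 signal centred on the gene's mean over the 8 arrays, for each array, with the same for all genes tested as crosses. Complexes I, III, IV and V lie between -0.61 and -0.35 on the SC arrays and highest on P1, and all genes tested lie between -0.17 and 0.10.

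Genes around the respiratory chain were read in the same fit, in which 27.5% of all genes tested were called higher and 19.6% lower. Of 36 tested assembly factors outside the NDUFAF family, 14 were higher and 2 lower in eSLCs (median 0.47). LYRM7, a complex III assembly factor, rose most, from 380.5 and 399.2 in SCs to between 1735 and 3270 in eSLCs (log2 difference 2.63, SE 0.23, adjusted p = 0.000381), and COA1 fell most (log2 difference -1.13, adjusted p = 0.00575). Of 30 genes of protein import and the outer membrane, 20 were higher by limma and none lower, against 22 and 2 at an unadjusted p under 0.05, with a median of 0.87, and TIMM8A, a chaperone between the membranes, rose most (1.67, adjusted p = 0.00343). Of 15 genes of mitochondrial DNA replication and transcription, 6 were higher by limma and 7 at an unadjusted p under 0.05 (median 0.54), and none were lower. TFAM, which packages mitochondrial DNA and starts its transcription, was at 650.4 to 1153 in eSLCs against 175.9 and 199.6 in SCs (log2 difference 2.27, SE 0.25, adjusted p = 0.000985). Of 13 regulators of mitochondrial biogenesis, 4 were higher, ESRRA most (1.34, adjusted p = 0.00142), and 2 lower, MYC most (-1.49, adjusted p = 0.0313), shares near those of all genes.

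Electron carriers and the tricarboxylic acid cycle had calls in both directions, in shares near the 27.5% and 19.6% of all genes. Of 18 electron carriers and ubiquinone genes, 6 were higher and 4 lower (median 0.25). GPD2, which feeds electrons from glycerol phosphate to ubiquinone, rose most (2.19, adjusted p = 0.00136), and SQOR, which feeds in electrons from sulfide, fell most, from 12450 and 10390 in SCs to 94.11 to 330.4 in eSLCs (log2 difference -6.14, SE 0.46, adjusted p = 0.000207). Of 21 genes of the tricarboxylic acid cycle and pyruvate entry, 6 were higher and 3 lower (median 0.34), with PDHB of the pyruvate dehydrogenase complex at 1.73 (adjusted p = 0.0109) and IDH3A, an isocitrate dehydrogenase subunit, at -1.32 (adjusted p = 0.0124). Of 9 genes of adenine nucleotide exchange and uncoupling, 5 were higher by limma, also at an unadjusted p under 0.05, and none lower (median 0.76), and CKMT1A, a mitochondrial creatine kinase, was at 2357 to 11470 in eSLCs against 68.37 and 50.27 in SCs (log2 difference 6.48, SE 0.67, adjusted p = 0.000757). Of 12 hypoxia genes, 4 were higher and 1 lower, with SLC2A1, a glucose transporter, at 4.72 (adjusted p = 0.000172) and ADM, adrenomedullin, at -4.62 (adjusted p = 0.0198).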

How the data were processed

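RNA of 8 samples was hybridised to 1-colour Agilent bovine gene expression arrays with 45220 spots. The authors deposited Feature Extraction (version 11.5.1.1) scanner files, which give spot intensity, and a value table made with GeneSpring GX, whose scale and centring are not given in the sources used here. The background-subtracted intensity was used because the deposited processed intensity did not follow it in 6 files (rank correlation 0.160 to 0.217, against 0.973 in I2 and 0.971 in N2). Control and outlier spots were left out, spots of a probe averaged, each array divided by its 75th percentile (1192 to 4092 before scaling), a floor of 13.28 set and log2 taken. No spot was saturated. Of 43653 probes, 26743 were named through RefSeq accessions, and the probe with the highest mean stood for its gene. Tested genes had both arrays of 1 or more groups well above background. limma 3.58.1 (R 4.3.3) fitted a mean per group to all 8 arrays, with Benjamini-Hochberg adjustment over 10957 genes and a threshold of 0.05. The eSLC value is the mean of the 3 origins. Arrays give no counts, so that precision rests on their number. The fit was tested on simulated data. Python 3.11.15 and matplotlib 3.10.9 drew the figures.

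The members, gene lists and tests were chosen with earlier results of these data known. The genes named were, of those called in each complex, the 3 that rose most and the 3 that fell most, the SDH genes, CYC1, UQCRFS1, NDUFA4, NDUFA4L2, COX7A2L, ATP5IF1, the isoforms of COX4, COX6A, COX6B, COX7A, COX7B and COX8, the c-ring genes, any gene called between origins, and the largest rise and fall of each other list. Other genes were named after their values were seen. Alternatives were the processed intensity, normexp background correction (offset 50, on the median signal), median scaling, quantile normalization, other filters and probe rules, the authors' value table, other fits, each slide alone, the methods' t-test and leaving out each array. Descriptions of promoter motifs and protein identity were not made here.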

Additional observations from a re-analysis of the deposited data

Results flagged for a closer look

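In 4 of the 40 genes or levels examined over the 6 eSLC arrays, 1 array stood apart: its gap to the nearest of the others, as a share of the whole range, was above Dixon's critical value. Chance marks about 1 in 20 such groups. COX7B2 had a gap of 1.0, since N7 stood at 2141 and the other 5 arrays at the floor. COX4I2 was highest in P1 (28.00, gap 0.719), and so was COX6A2 (84.23, gap 0.708). COX6B2 was lowest in N7 (4502, gap 0.663).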

How the results depend on the processing

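The number of the 89 genes called in eSLCs against SCs, 43 in all, was 1 with the processed intensity, 3 with the authors' value table, 25 with the SC arrays as 1 sample, 6 on slide 1, 11 on slide 2, and 16 at 2-fold with or without the test. The share of all genes called, 47.0%, was 4.22% with the processed intensity, 27.7% with the authors' value table, 25.2% with the SC arrays as 1 sample, 12.7% on slide 1, 15.4% on slide 2 and 35.4% at 2-fold with the test. Leaving out 1 array gave 22 to 53. For IVP-eSLCs (32 called) the first 3 of these settings gave 1, 1 and 14, with 18 after quantile normalization, 0 on slide 1, 6 with the methods' t-test after Benjamini-Hochberg adjustment and 14 at 2-fold, and 11 to 39 with 1 array left out. For NT-eSLCs (27 called) those 3 gave 0, 1 and 9, with 16 after quantile normalization, 9 with only the groups compared in the fit, 0 on slide 1 and on slide 2, 0 with the t-test, and 10 at 2-fold (11 without the test), and 6 to 25 with 1 array left out. For PA-eSLCs (48 called) those 3 gave 0, 1 and 24, with 19 after quantile normalization, 0 on slide 2, 12 with the t-test, and 26 at 2-fold (29 without the test), and 21 to 53 with 1 array left out. The lowest counts came without SC P5. Of all genes, the adjusted t-test called 9.07%, 2.89% and 17.4% in IVP-, NT- and PA-eSLCs, quantile normalization 37.2%, 34.7% and 39.5%, and the fit of only NT-eSLCs and SCs 24.8%. Between NT- and IVP-eSLCs the unadjusted t-test called 5. Without N2, COX7B2 entered the test only through N7, the 1 array where it was above the floor, so that this fit cannot judge it. Between PA- and IVP-eSLCs the t-test called 12. The median of 0.57 was 0.74 with the processed intensity, 0.29 after quantile normalization, 0.47 with the authors' table, 0.46 on slide 1 and 0.67 on slide 2. By complex, the processed intensity gave 0.84 (NDUFAF), 1.16 (III) and 0.85 (IV), quantile normalization 0.23 (I), 0.023 (II), 0.33 (III), 0.26 (IV) and 0.42 (V), the mean of a gene's probes 0.78 (NDUFAF), the authors' values 0.23 (I) and -0.075 (II, which reversed), slide 1 0.40 (I) and 0.64 (V), and slide 2 0.74 (IV). With the mean of its probes, COX6B2 was called (2.23, adjusted p = 0.00331). Single genes kept direction and call in 668 instances, lost the call in 102, gained it in 16 and reversed in 13. The processed intensity reversed COX8B (-3.29), NDUFA9 (-1.43) and SDHA (0.054). COX6A2 reversed with normexp (-0.027), quantile normalization (-0.0026), the authors' table (-0.42), slide 1 (-0.075) and when 1 array was left out (-0.055 without P1, up to 0.30 without P4). Quantile normalization reversed COX4I1 (-0.085) and NDUFA4 (-0.13), the mean of the probes NDUFA4 (-0.028), the authors' table COX6B2 (-0.040) and slide 1 COX8B (-0.080). The causes were not tested, beyond the fewer arrays in some fits. No paired analysis was possible because the replicate numbers name lines or passages that do not correspond between groups.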
